A study of Mus musculus with 17 samples.

Results

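Retained-intron transcripts were compared in sorted mouse β cells between low and high glucose and between control and *Pcbp2*-deleted cells. They are transcripts that the annotation gives the biotype retained_intron, which means that they keep intronic sequence relative to the coding transcripts of their gene. A transcript was a member if its gene also had a protein_coding transcript and a summed abundance of at least 1 TPM (abundance per transcript length, scaled to the library) in all 17 samples. This left 14452 of the 21925 retained-intron transcripts, and they belong to 5454 of the 8515 coding genes that reached this level. Each gene with such transcripts is called a member here, and its value is the percentage of the gene's TPM that its retained-intron transcripts took together. The gene level thus chose the members, and the 3 just outside the limit were *Ercc2*, *Camk1g* and *Arih1*, with 0.998, 0.998 and 0.9999 TPM in their lowest sample. The 3 just inside it were *Bbs10*, *Smarcd1* and *Tedc2*, with 1.00, 1.01 and 1.01 TPM.

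An intron is removed when the spliceosome joins its 5′ splice site, which nearly always begins with GT, to its 3′ splice site, which nearly always ends with AG. Transcripts that keep an intron are often held in the nucleus or, if exported, met by nonsense-mediated decay at a premature stop codon, so that a change in their share can alter how much coding mRNA a gene delivers. Genes for splicing regulators and RNA-binding proteins are textbook carriers of retained or detained introns. PCBP2 itself is a poly(C)-binding protein that contacts C-rich stretches of RNA and takes part in splicing, stability and translation.

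All samples came from male mice whose β cells carried the Cre-inducible tdTomato reporter together with Cre under the rat insulin promoter (RIP-Cre). The control mice, labelled WT, therefore also carried Cre, and the knockout mice (*Pcbp2* βKO) additionally had both *Pcbp2* alleles flanked by loxP sites. Islets were cultured at a glucose concentration of 2.8 mM (low) or 16.7 mM (high) over 72 hours, after which tdTomato+ cells were sorted, and polyA RNA was sequenced from 3 control samples at 2.8 mM, 4 control samples at 16.7 mM and 5 knockout samples at each concentration. Animal ages for this experiment were not given in the sources used here. Nor do the labels say whether replicates came from separate animals, so the p values measure the spread between these samples, which may be technical.

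Total estimated counts ranged from 47385513 to 82419400 per sample. *Ins1* and *Ins2* took 19.7 to 35.1% of all TPM at 2.8 mM and 56.9 to 62.5% at 16.7 mM, so that less of the total was left to all other genes at high glucose. At 16.7 mM, 3 libraries stood apart, since control replicate 4 and knockout replicates 4 and 5 had TMM scaling factors of 0.999, 0.939 and 0.947 against 0.755 to 0.856 in the others. *Pcbp2* was at 47.9 to 61.9 TPM in control cells and 14.4 to 20.5 TPM in knockout cells at 2.8 mM, and at 13.9 to 23.4 and 3.55 to 4.70 TPM at 16.7 mM, so that genotypes did not overlap at either concentration. The 8 β cell markers summed to at least 242148 TPM in every sample. *Ins2* alone was at 195356 TPM or more, whereas *Mafa* was at 0.234 to 6.26 TPM and *Nkx6-1* at 2.89 to 7.24 TPM. Endothelial and stellate markers stayed under 1 TPM, but the ductal sums were 54.9 to 379 TPM. Acinar markers summed to 0.963 to 26.3 TPM and proliferation markers to 0.830 to 65.7 TPM. The delta cell markers summed to 239–2099 TPM in knockout cells at 2.8 mM and 77.8–355 TPM at 16.7 mM. The 4 alpha cell markers summed to 719–2747 TPM in control and 1746–12996 TPM in knockout cells at 2.8 mM, against 136–1213 and 100–832 TPM at 16.7 mM. *Ppy*, the pancreatic polypeptide gene, and the 4 macrophage markers were likewise higher at low glucose (*Ppy* 2711–17068 against 458–2229 TPM, macrophage markers 15.2–121 against 0.683–9.53 TPM over both genotypes). The alpha cell, *Ppy* and macrophage levels move with the glucose comparison. The part of any of these other cell types in the results was not tested.

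Among the members, 1903 genes had a single retained-intron transcript, 1332 had 2, 862 had 3 and 1357 had 4 or more, up to 16 in *Cspp1*, a centrosomal protein gene. The transcripts were mostly short, with 460 and 3408 bases at the 10th and 90th percentile of length, and protein_coding transcripts of the same genes had a median of 1758 bases. Many of the models are thus fragments around an intron rather than whole mRNAs with an intron left in. For each member, the retained-intron transcript with the highest mean TPM was placed on the GRCm39 annotation, which succeeded for 5451 of 5454. Of the 4807 that were both placed and tested, 1604 (33.4%) contained a whole intron of a coding transcript. Of the same 4807, 50.6% began and 65.5% ended inside an intron, whether or not they also contained a whole one. A coding 5′ splice site was read through in 78.8% and a coding 3′ splice site in 65.2%, and 1.60% read through neither.

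Splice sites left unspliced are shown for members whose shares are given sample by sample afterwards, because they mark where the leading retained-intron model departs from the spliced mRNA. Some models read through further sites that are not shown. The leading model holds 40.2% of the retained-intron TPM in *Ppdpf*, 57.1% in *Uhrf2*, 71.3% in *Ints9*, 83.2% in *Vps37a* and 88.6% in *Gigyf2*. In *Flcn* it holds 95.1%, and in *Borcs8*, *Prpf31* and *Rfx6* 99.9 to 100%. In each 5′ site, 3 exonic bases precede 6 intronic bases and the GT is in capitals. In each 3′ site, 20 intronic bases precede 3 exonic bases and the AG is in capitals. All are read from GRCm39 in the direction of transcription.
Borcs8-204, 5′ site, chr8:70597782-70597790, plus strand: cagGTagcc
Prpf31-205, 5′ site, chr7:3633902-3633910, plus strand: aagGTgcct
Ppdpf-206, 5′ site, chr2:180829527-180829535, plus strand: ggcGTaagt
Ppdpf-206, 3′ site, chr2:180829582-180829604, plus strand: gacccgcctccccttcccAGgac
Gigyf2-204, 3′ site, chr1:87347987-87348009, plus strand: ttttttttaaacttttgaAGaca
Gigyf2-204, 5′ site of the following intron, chr1:87349311-87349319, plus strand: cagGTaaaa
Flcn-205, 5′ site, chr11:59686327-59686335, minus strand: caaGTtggg
Flcn-205, 3′ site, chr11:59686088-59686110, minus strand: agccgccgtgttgtccacAGacc
Vps37a-207, 3′ site, chr8:40996831-40996853, plus strand: atttttttgtttgttcacAGagt
Rfx6-203, 5′ site, chr10:51597712-51597720, plus strand: ttgGTatcc
Ints9-203, 5′ site, chr14:65271542-65271550, plus strand: gagGTgagc
Uhrf2-203, 3′ site, chr19:30066566-30066588, plus strand: tattttataaattaacctAGatg

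The models differ in what they keep. Ppdpf-206 starts inside an intron and spans 4 whole introns annotated in coding transcripts, some of them overlapping. The one shown has 72 bases (intron 3 of 5 in a coding transcript). Flcn-205 spans 2 such introns. The one shown has 242 bases (intron 11 of 14), and its 3′ site is used by 29 of 30 coding transcripts but its 5′ site by only 3. Borcs8-204, Prpf31-205, Rfx6-203 and Ints9-203 run through a 5′ splice site and end inside the intron, and Uhrf2-203 starts inside an intron and runs through its 3′ site. Gigyf2-204 and Vps37a-207 begin in one intron, cross its 3′ site and end in a later one. In Gigyf2-204, which has 2 exons, the 5′ site shown is that of the intron after the last exon, so a spliced intron lies between both sites. Of 25 coding transcripts of *Gigyf2*, 9 use the 3′ site shown and 8 the 5′ site.

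Across the 17 samples, the members' mean shares had a median of 6.15%, with 2.05% and 15.7% at the quartiles. The share was over 20% in 1048 members and over 50% in 193, and under 1% in 749. The highest retained-intron levels were in *Itm2b*, a membrane protein gene, at a mean of 442 TPM, *Ctsb*, which encodes the lysosomal protease cathepsin B, at 179 TPM, and *Calr*, the ER chaperone calreticulin, at 138 TPM. *Rps16*, a ribosomal protein gene, and *Rsrp1*, which encodes an arginine- and serine-rich protein, followed with 134 and 122 TPM. The group means of their shares lay close together, for instance 65.1 to 66.4% for *Ctsb* and 48.3 to 54.4% for *Itm2b*, and none of the 5 was called in any comparison.

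Summed over all members, retained-intron transcripts took 6.63 ± 0.742% of the genes' TPM in control cells (SD, n = 3) and 6.87 ± 0.666% in knockout cells (n = 5) at 2.8 mM. At 16.7 mM they took 7.24 ± 0.242% (n = 4) and 7.36 ± 0.416% (n = 5). The individual samples were at 6.11, 6.31 and 7.48% in control and 6.31, 6.5, 8.01, 6.74 and 6.81% in knockout cells at 2.8 mM, and between 6.68 and 7.80% at 16.7 mM. Replicate 3 was the highest sample at low glucose in both genotypes, and all 4 groups overlapped. Measured in estimated counts, which are not divided by length, the summed share was 4.51, 4.54, 4.75 and 4.69% for control low, control high, knockout low and knockout high.

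**Figure D1:**
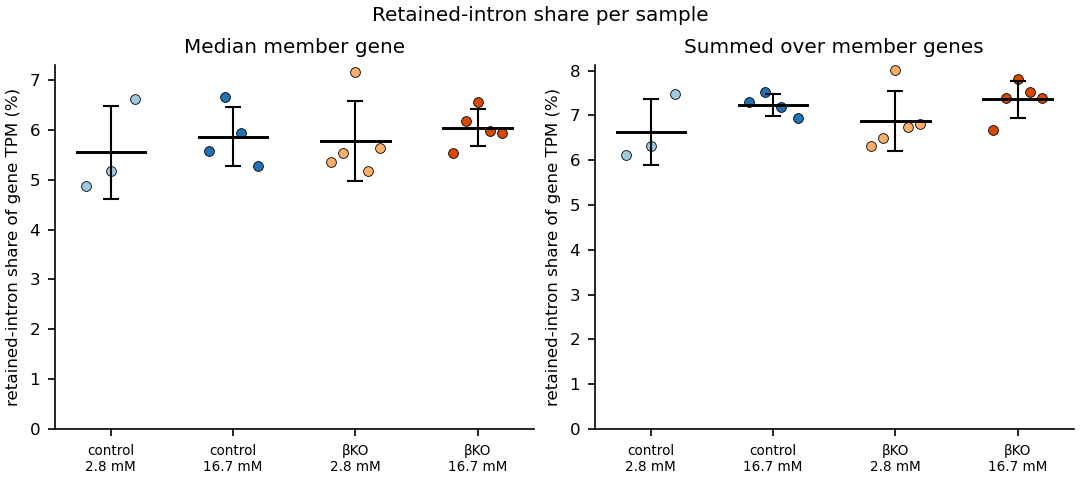
Share of retained-intron transcripts in each of the 17 samples (y axis, percent of the member genes' TPM summed, and the median over members), with samples grouped by genotype and glucose, lines at group means and error bars of 1 SD. The summed share lies between 6.11 and 8.01% at 2.8 mM and between 6.68 and 7.80% at 16.7 mM, so the groups overlap.

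Shares were tested as log2 odds, the log2 of retained-intron TPM over the TPM of the gene's other transcripts with 0.1 TPM added to both. The fit covered 9514 pairs of a gene and a non-coding transcript class, and 4810 members had enough counts to enter it. Of the other 644, 643 averaged fewer than 10 estimated counts for their retained-intron transcripts, which were listed at 0 in every sample in 10 of them, and 1 had too few counts for its other transcripts. A share was called at a Benjamini-Hochberg adjusted p under 0.05 from limma and an odds change over 1.5-fold.

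The retained-intron share was called higher at 16.7 mM for 112 members and lower for 46, together 158 of 4810 or 3.28%. Of all 9514 pairs in that comparison 4.34% were called (2.46% higher, 1.88% lower), and 975 members (20.3%) had an unadjusted p under 0.05. The other classes in the fit, nonsense-mediated decay transcripts and the remaining non-coding ones, were called at 6.55% and 4.54%. With the replicate number as a block, 413 members were called (310 higher, 103 lower). The groups did not overlap for 629 tested members (13.1%, against 14.9% of all pairs). The excess of higher calls changed with the TPM added to both sides of the odds, the pseudocount. At 0.01 TPM 51 members were higher and 32 lower, and at 1 TPM 1431 and 80. Rescaling TPM to the total outside *Ins1* and *Ins2* gave 57 higher and 43 lower. This rescaling multiplies both sides of the odds alike, so it acts only through the pseudocount. Shares taken from estimated counts gave 58 higher and 48 lower. The number of calls was 19 without control replicate 2 at 2.8 mM and 302 without control replicate 4 at 16.7 mM.

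*Borcs8*, a subunit of the BORC complex that positions lysosomes, had the widest gain. Its retained-intron share was 14.3, 7.15 and 15.1% in control cells at 2.8 mM and 54.6, 43.2, 46.1 and 24.3% at 16.7 mM. In knockout cells it was 8.10, 7.38, 9.61, 8.59 and 13.2% at 2.8 mM and 36.2, 40.5, 45.1, 25.2 and 30.4% at 16.7 mM. Every high-glucose sample lay above every low-glucose sample in both genotypes, and replicate 4 was the lowest of each high-glucose group. The log2 odds rose by 2.4 ± 0.40 (SE, adjusted p = 0.00231, limma) in control and 2.39 ± 0.33 (adjusted p = 0.000127) in knockout cells. The level of the retained-intron transcript itself rose (log2 fold change 1.78 in control and 2.09 in knockout cells, edgeR). Exons of *Mef2b* on the same strand cover 47.0% of Borcs8-204, so reads of the neighbouring gene cannot be told apart from it there.

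*Prpf31*, which encodes a protein of the U4/U6.U5 tri-snRNP of the spliceosome, had a share of 23.7, 31.6 and 37.1% in control cells at 2.8 mM and 46.3, 62.9, 56.1 and 50.1% at 16.7 mM. In knockout cells the values were 47.6, 47.4, 41.2, 42.3 and 59.8% at 2.8 mM and 72.3, 69.2, 69.8, 56.6 and 69.4% at 16.7 mM. The control groups were apart, and in knockout cells replicate 4 at 16.7 mM lay below replicate 5 at 2.8 mM. The rise was 1.4 ± 0.31 log2 units of odds in control (adjusted p = 0.0148, limma) and 1.18 ± 0.25 in knockout cells (adjusted p = 0.00400). No exon of another gene overlaps Prpf31-205, and the level of the class rose (1.70 and 1.26 log2 units) while that of the gene's other transcripts gave 0.27 and 0.18, neither called.

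*Ppdpf*, named for pancreatic progenitor cell differentiation and proliferation, had 17.3, 15.9 and 18.1% of its TPM in retained-intron transcripts in control cells at 2.8 mM and 40.3, 44.7, 43.4 and 28.4% at 16.7 mM. The knockout samples were at 11.1 to 19% (median 14.8%) and 23.5 to 43.9% (median 28.6%). The groups were apart in both genotypes, with log2 odds changes of 1.62 ± 0.32 (adjusted p = 0.00811, limma) and 1.37 ± 0.26 (adjusted p = 0.00176). *Pwwp3a*, a chromatin protein gene with a PWWP domain, went from 21.8 ± 3.26% (SD, n = 3) to 40.1 ± 6.70% (n = 4) in control and from 16.1 ± 2.28% to 40.3 ± 2.31% (n = 5 each) in knockout cells. In *Pwwp3a* the other transcripts fell (by 0.92 and 1.11 log2 units) and the retained-intron level rose only in the knockout test (0.71, against 0.24 in control cells, a difference that was not itself tested).

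*Gigyf2*, an adaptor in translational repression by 4EHP, showed the opposite pattern. Its share was 82.4, 84.3 and 83.0% in control cells at 2.8 mM and 33.6, 48.4, 42.4 and 65.4% at 16.7 mM, and 87.0, 84.4, 88.6, 87.5 and 73.2% against 39.3, 35.2, 38.8, 61.7 and 30.0% in knockout cells. At low glucose retained-intron transcripts were thus the bulk of the gene's TPM in every sample, and replicate 4 was the highest of each high-glucose group. The log2 odds fell by 2.45 ± 0.43 (SE, adjusted p = 0.00347, limma) in control and by 3.00 ± 0.36 (adjusted p = 3.61e-05) in knockout cells. The level of the class fell by 1.84 and 2.27 log2 units (edgeR). No other gene's exon overlaps Gigyf2-204, which holds 88.6% of the class.

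*Flcn* encodes folliculin, a lysosomal regulator in nutrient sensing. Its share was 28.9, 35.1 and 38.4% in control cells at 2.8 mM and 9.50, 8.17, 10.3 and 23.6% at 16.7 mM, and in knockout cells 34.0, 34.3, 40.4, 37.9 and 20.6% against 7.63, 8.77, 8.46, 23.0 and 7.84%. Both high-glucose replicates 4 stood well above their group, and the one in knockout cells (23.0%) lay above the lowest low-glucose sample there (20.6%). The log2 odds fell by 1.88 ± 0.42 (adjusted p = 0.0171, limma) and by 2.04 ± 0.35 (adjusted p = 0.000784).

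*Vps37a*, a subunit of the ESCRT-I sorting complex, had 37.9, 40.0 and 44.0% in control cells at 2.8 mM and 25.5, 18.6, 22.1 and 28.4% at 16.7 mM, and 38.5 to 52.1% (median 41.5%) against 15.6 to 29.5% (median 23.7%) in knockout cells. No sample of one concentration reached the other in either genotype. The class level fell by 1.84 log2 units in control and 2.46 in knockout cells (edgeR). *Rfx6*, a transcription factor of islet development and β cell function, had 33.9, 47.5 and 32.5% in control cells at 2.8 mM and 20.7, 19.998, 15.5 and 17.9% at 16.7 mM. In knockout cells it had 33.3 to 48.3% (median 37.3%) and 18.9 to 26.4% (median 21.3%). Its log2 odds fell by 1.39 ± 0.24 (SE, adjusted p = 0.00330, limma) and by 1.25 ± 0.20 (adjusted p = 0.000422), again with no overlap. Single control libraries decided some of these calls in control cells: those of *Ppdpf*, *Vps37a*, *Flcn* and *Prpf31* were lost without replicate 2 at 2.8 mM, those of *Flcn* and *Prpf31* also without replicate 2 at 16.7 mM, and that of *Prpf31* also without replicate 1 at 2.8 mM. The control call of *Flcn* was further lost with edgeR's diffSpliceDGE and without the low-glucose replicates 3. In knockout cells, none of these members lost its call under the alternatives tried.

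**Figure D2:**
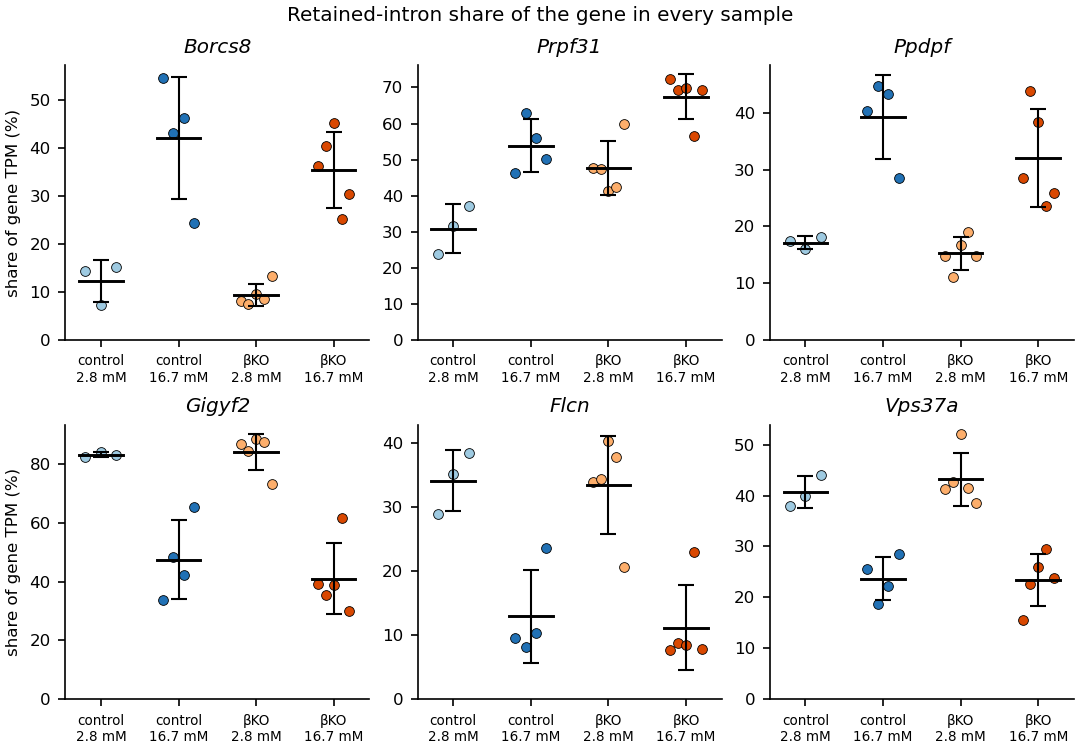
Retained-intron share (y axis, percent of the gene's TPM) of *Borcs8*, *Prpf31*, *Ppdpf*, *Gigyf2*, *Flcn* and *Vps37a*, chosen among the members named for glucose, with 1 point per sample, colours for the 4 groups, lines at group means and error bars of 1 SD. In *Borcs8* the 9 high-glucose samples sit at 24.3 to 54.6% against 7.15 to 15.1% at low glucose, and in *Gigyf2* at 30.0 to 65.4% against 73.2 to 88.6%.

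The same comparison in knockout cells, which has 5 samples on each side, called 524 members higher and 199 lower at 16.7 mM, together 723 or 15%. Of all pairs 15.5% were called, with 9.44% higher and 6.08% lower, and 1481 members (30.8%) had an unadjusted p under 0.05. With a pseudocount of 0.01 TPM, 232 were higher and 166 lower, and with 1 TPM 1806 and 160. Rescaled outside the insulin genes, 274 were higher and 209 lower, and from estimated counts 265 and 223. Groups did not overlap for 407 members (8.46%, against 10% of all pairs). Besides the members above, the share of *Mtf1*, the metal-responsive transcription factor, rose from 56.3 ± 4.34% to 76.8 ± 3.04% (adjusted p = 0.000270, limma). The shares of *Timm44*, part of the mitochondrial import motor, and *Sap18*, of the exon-junction-associated ASAP complex, fell from 56.6 ± 7.86% to 32.1 ± 9.19% and from 44.1 ± 6.57% to 20.5 ± 3.97% (SD, n = 5). In control cells *Mtf1* was at 63.0 and 75.1% and *Timm44* at 49.9 and 31.3%, and both were called there with the replicate block (adjusted p = 0.0357 and 0.0201, limma, against 0.0598 and 0.0586 without it).

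Some control calls were not made in knockout cells. *Lin7b*, a polarity scaffold gene, was at 12.4 ± 3.45% and 31.3 ± 7.0% in control cells (adjusted p = 0.0279, limma) and at 16.6 ± 5.67% and 25.6 ± 7.02% in knockout cells (adjusted p = 0.109). *Mfn1*, the mitochondrial fusion GTPase mitofusin 1, was at 36.5 ± 3.92% and 16.2 ± 8.60% in control cells (adjusted p = 0.0278) and at 31.9 ± 6.22% and 20.8 ± 3.53% in knockout cells (adjusted p = 0.109). *Taf6l*, of the histone acetylation complexes, fell from 48.6 ± 10.5% to 29.1 ± 5.19% in control cells (adjusted p = 0.0481) and was at 53.4 ± 4.86% and 40.9 ± 9.35% in knockout cells (adjusted p = 0.0758). The control calls were fragile, that of *Lin7b* being lost without any 1 of the 3 low-glucose replicates or high-glucose replicates 2 or 3, that of *Mfn1* without any control library but high-glucose replicate 4, and that of *Taf6l* without any but low-glucose replicate 1. The interaction test called none of these, and 89.4% of Lin7b-206 lies under exons of other genes on the opposite strand.

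Both genotypes gave glucose comparisons that share no samples. Of the 112 members called higher in control cells, 93 (83%) were called higher in knockout cells, and these were 17.7% of the 524. All 112 had a positive log2 odds change in knockout cells. Of the 46 called lower, 30 (65.2%) were called lower in knockout cells, or 15.1% of the 199, and 45 of 46 had a negative change. Conversely, 513 of the 524 and 186 of the 199 had the same sign in control cells. Over all 4810 tested members, 64% had a positive change in control and 62.1% in knockout cells, so much of the shared positive sign is common to the members. Across the 4810 tested members, Pearson's r between both sets of changes was 0.68. It is given as a description because members are not independent replicates. All libraries also share the insulin-related shift in scale, which acts on the odds through the pseudocount.

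**Figure D3:**
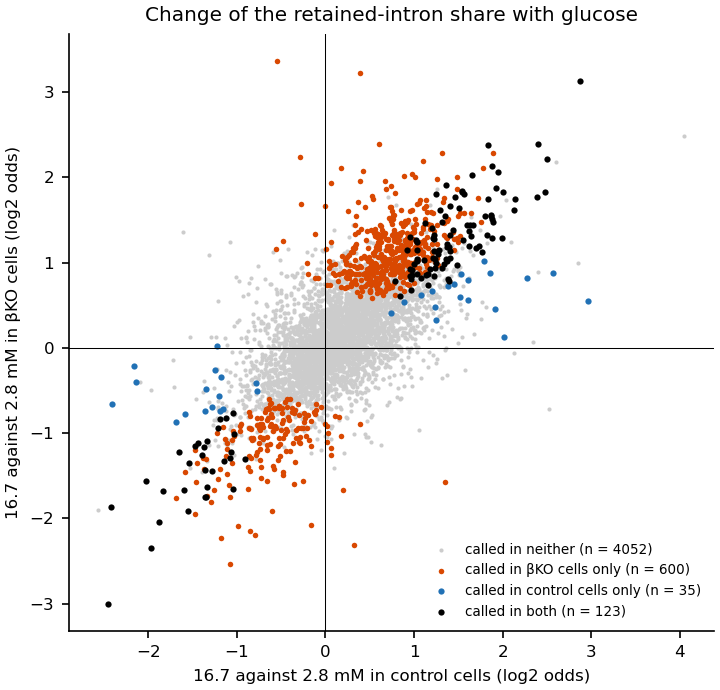
Change in log2 odds of the retained-intron share from 2.8 to 16.7 mM glucose in control cells (x axis) against knockout cells (y axis), with 1 point per tested member and colours for those called in both genotypes (123), in knockout cells alone (600), in control cells alone (35) or in neither (4052). Members called in both lie at the lower left and the upper right.

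Of the 123 members called in both genotypes, 31 were called in both under each of 12 settings that kept all libraries, 20 higher and 11 lower at high glucose. They were picked after their values were seen, so their number is a description. Their groups did not overlap in either genotype for 24 of the 31, and 9 were also called in both when any single library was left out: *Gigyf2*, *Borcs8*, *Vps11*, *Surf2*, *Cct8*, *Aldoa*, *Hmgn1*, *Rfx6* and *Ip6k1*. Exons of other genes cover 99.9% of the leading model of *Surf2* (*Surf1* and *Surf4*), 93.2% of that of *Aldoa* (*Tlcd3b* and *Gm57854*) and 43.7% of that of *Ip6k1*, so these 3 are uncertain. *Hmgn1*, which encodes a nucleosome-binding protein, has processed pseudogenes that can share its reads.

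Some more of the 31 are given as examples, chosen after their values were seen. The share of *Vps11*, of the HOPS tethering complex, rose from 0.594 ± 0.209% to 2.80 ± 1.32% in control (n = 3 and 4) and from 0.807 ± 0.375% to 2.07 ± 0.210% in knockout cells (n = 5 each). That of *Trappc11*, of the TRAPP trafficking complex, fell from 15.2 ± 2.89% to 7.69 ± 1.71% and from 18.7 ± 4.28% to 6.36 ± 1.45%. *Creb3*, an ER-anchored transcription factor, went from 17.4 to 8.41% and from 13.5 to 7.38%, though *Gba2* exons on the other strand cover 58.1% of its model.

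*Rpp21*, a subunit of RNase P, was at 14.7 and 28.8% in control and 15.5 and 28.4% in knockout cells at low and high glucose, and *Ddx50*, a nucleolar RNA helicase, was at 7.78 and 14.5% and 7.70 and 14.0%. *Tasp1*, the protease that cleaves MLL proteins, was at 17.9 and 35.4% and at 15.6 and 34.3%. *Fastk*, linked to mitochondrial RNA, was at 21.8 and 35.2% and at 23.1 and 34.8%. These shares were called higher at 16.7 mM in both genotypes. *Cct8*, a subunit of the cytosolic chaperonin, fell from 2.67 to 0.658% and from 3.19 to 0.903%.

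A share can move because the retained-intron transcripts change, because the gene's other transcripts do, or both. Levels were tested with edgeR on estimated counts of each class. Of the 5084 members' retained-intron levels that could be tested, 195 were called higher and 203 lower at high glucose in control cells, where 11.7% of all 29467 features were called (6% higher, 5.67% lower). With the replicate block these were 363 and 332. In knockout cells 444 were higher and 459 lower, where 21.8% of all features were called (12.2% higher, 9.59% lower). Among the 112 members with a higher share in control cells, the class level was called higher in 23 and the other transcripts lower in 55. Among the 46 with a lower share, the class was lower in 25 and the rest higher in 12. In knockout cells, the class was higher in 121 and the rest lower in 245 of the 524, and the class lower in 86 and the rest higher in 80 of the 199. The median changes of the class and of the other transcripts were 0.68 and −0.67 log2 units in the 112 and 0.41 and −0.57 in the 524.

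Ribosomal protein genes showed both classes side by side. Of 60 members, 56 were tested, and the share was called higher in 6 and lower in 0 in control cells, and higher in 22 and lower in 1 (*Rps26*) in knockout cells, where 2.46% and 9.44% of all pairs were called higher. The count in control cells was 0 without replicate 2 at 2.8 mM, 2 without replicate 1 there, 3 without replicate 2 or 3 at 16.7 mM, and 10 without replicate 3 at 2.8 mM or replicate 4 at 16.7 mM. Their median log2 odds change was 0.73 and 0.70, against 0.13 and 0.11 over all pairs tested, and 0.63 and 0.60 after rescaling outside the insulin genes, with 4 and 18 higher calls. The level of their other transcripts, coding and non-coding together, fell in 53 and 55 of 56 (median −1.12 and −1.22 log2 units). The retained-intron level was called lower in 10 and 20 (median −0.51 and −0.62). *Rpl3* went from 1.09 ± 0.306% to 3.07 ± 0.839% in control and from 0.942 ± 0.262% to 3.27 ± 0.909% in knockout cells, and *Rpl30* from 0.556 to 1.39% and from 0.537 to 1.69%. With the replicate block, 14 were called higher in control cells, and *Rpl13a* was called lower in knockout cells (adjusted p = 0.0335, limma). Exons of *Gm45713* and *Snord33* cover 85.1% of its leading model, so this share is uncertain. Ribosomal protein genes have many near-identical processed pseudogenes with which reads can be shared, so the small shares are uncertain.

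Translation factors had 24 members and 21 tested, of which 1 was called higher in control and 4 higher and 2 lower in knockout cells, where 4.34% and 15.5% of all pairs were called in either direction. *Eef2*, the ribosomal translocation factor, went from 0.18 to 1.07% and from 0.24 to 1.04% and was called in both. *Eif4a1*, a helicase of cap-dependent initiation, fell from 7.46 to 1.55% in knockout cells (adjusted p = 6.17e-05, limma) and was at 5.50 and 2.37% in control cells, and its paralogue *Eif4a2* rose from 6.41 to 11.5% in knockout cells and was called in control cells with the replicate block (adjusted p = 0.0361, limma). The scaffold *Eif4g1* fell in knockout cells from 14.9 to 6.06%, a call lost with shares of estimated counts and with diffSpliceDGE. The list's median log2 odds changes were 0.45 and 0.33.

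Genes that act in splicing moved in both directions, and of all pairs 4.34% were called in control and 15.5% in knockout cells (9.44% higher, 6.08% lower). In the list of splicing kinases and genes with known detained introns, 11 were tested and 2 were called higher in each genotype. These were *Mat2a*, the methionine adenosyltransferase whose retained intron responds to its product, at 6.71 and 14.9% in control and 5.40 and 10.8% in knockout cells, and *Srpk2*, a kinase of SR proteins, at 5.39 and 10.8% and at 6.38 and 10.7%. Both control calls were lost with diffSpliceDGE and without replicate 1 or 2 at 2.8 mM or replicate 2 or 3 at 16.7 mM, and that of *Mat2a* also with a pseudocount of 0.01 TPM and without replicate 1 at 16.7 mM. In knockout cells diffSpliceDGE did not call *Srpk2*. *Clk4* was at 28.7 ± 13.0% and 27.7 ± 2.55% in control cells and at 28.9 ± 5.00% and 28 ± 4.39% in knockout cells, and neither it nor *Clk1* or *Srpk1* was called. Of 13 SR proteins, 0 were called in control cells by limma or diffSpliceDGE (4 had an unadjusted p under 0.05), but *Srsf7* was called lower there with the replicate block (adjusted p = 0.0089, limma), 3 were called lower against protein-coding transcripts alone and 1 higher with sample weights. In knockout cells the shares of *Srsf7* (44.2 to 30.3%) and *Srsf3* (27.4 to 16.2%) fell while those of *Srrm2* (7.08 to 11.7%) and *Srsf4* (1.34 to 2.25%) rose, and against protein-coding transcripts alone 6 were lower. All 4 calls were lost with shares of estimated counts, those of *Srsf7*, *Srrm2* and *Srsf4* with diffSpliceDGE, and those of *Srsf7*, *Srsf3* and *Srrm2* without the 3 libraries that stood apart. Each was also lost on leaving out 4 to 8 of the 10 knockout libraries singly.

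Of 15 tested hnRNP and poly(C)-binding protein genes, 1 was called in control and 4 in knockout cells, where 4.34% and 15.5% of all pairs were called. *Hnrnpm*, a splicing regulator, fell in both genotypes, from 11.4 to 3.04% and from 13.8 to 2.65%. *Hnrnpa2b1* (30.9 to 12.6%) and *Hnrnpdl* (7.36 to 3.82%) fell and *Hnrnpul1* (2.24 to 3.56%) rose in knockout cells. The calls of *Hnrnpm* and *Hnrnpa2b1* in knockout cells were kept under the alternatives tried, and in control cells diffSpliceDGE did not call *Hnrnpm*. The call of *Hnrnpul1* was lost with a pseudocount of 0.01 TPM, shares of estimated counts, diffSpliceDGE, rescaling, without the 3 libraries and without any of 8 single libraries, and that of *Hnrnpdl* with both other pseudocounts, without the 3 libraries and without any of 5 single ones. With the replicate block, *Hnrnpa2b1* was also called in control cells (adjusted p = 0.0202, limma), as was *Rbm39*, a splicing coactivator (adjusted p = 0.0216). Of 35 spliceosome proteins, *Prpf31* rose in both genotypes, and in knockout cells *Prpf40b*, *Snrpc* and *Prpf6* rose while *Sf3b2* (27.8 to 12.8%), *Prpf39* and *Ddx46* fell. With shares of estimated counts, diffSpliceDGE, a pseudocount of 0.01 TPM or rescaling, the calls of *Snrpc*, *Prpf6* and *Prpf39* were lost, while those of *Prpf31*, *Sf3b2*, *Ddx46* and *Prpf40b* were not. The 12 tested decay and export factors gave 0 calls in control cells (limma and diffSpliceDGE, with 4 under 0.05 unadjusted) and 1 in each direction in knockout cells, *Smg6* of nonsense-mediated decay (5.31 to 8.51%) and *Thoc1* of the THO export complex (82.9 to 76.5%). Both knockout calls were lost with diffSpliceDGE, a pseudocount of 0.01 TPM and rescaling, and without replicate 1 at 2.8 mM or replicate 1 or 3 at 16.7 mM. The replicate block added *Thoc1* (lower, adjusted p = 0.0479, limma) and *Exosc10* of the nuclear exosome (higher, adjusted p = 0.0428) in control cells. The list medians in this group changed sign between settings for SR proteins, hnRNPs, spliceosome proteins and, in control cells, decay and export factors, and no direction is given for them.

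The lists closest to β cell function held few members, since many of these genes have no retained-intron model. Beside their calls, 4.34% of all pairs were called in control and 15.5% in knockout cells. Of 9 tested granule and exocytosis genes, *Chga*, which encodes the granule protein chromogranin A, rose from 0.63 to 1.19% in control and from 0.64 to 1.14% in knockout cells, and *Rab27a*, a GTPase of granule exocytosis, fell from 16.0 to 6.82% in knockout cells. The control call of *Chga* was lost with a pseudocount of 0.01 TPM, shares of estimated counts, diffSpliceDGE and rescaling, and without replicate 1 or 2 at 2.8 mM or replicate 1, 2 or 3 at 16.7 mM. In knockout cells its call was lost with diffSpliceDGE and, like that of *Rab27a*, without the 3 libraries. Of 7 glucose sensing and β cell transcription factor genes, *Rfx6* fell in both, and *Mlxipl*, which encodes the glucose-responsive factor ChREBP, fell from 45.4 to 30.0% in knockout cells (adjusted p = 0.0355, limma) and was called in control cells with the replicate block (adjusted p = 0.0211), although its knockout call was lost with diffSpliceDGE, a pseudocount of 0.01 TPM and without any of 7 single libraries. *Ddit3*, the stress factor CHOP, was at 0.46 and 3.86% in control and 0.47 and 4.28% in knockout cells and was 1 of 13 stress response genes called in control cells. *Trib3*, a pseudokinase of the same response, was also called in knockout cells, at 0.63 and 0.88%. diffSpliceDGE called neither of them in knockout cells nor *Ddit3* in control cells, where its limma call was also lost without replicate 2 at 2.8 mM. The call of *Trib3* was also lost with a pseudocount of 0.01 TPM, shares of estimated counts, rescaling and without replicate 2 at 16.7 mM. In the 10 lists together, limma called 0 of 192 tested entries in either knockout comparison, with 10 at 2.8 mM and 13 at 16.7 mM under 0.05 unadjusted. Of all pairs, 0.0315% were called in each of these comparisons.

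Few retained-intron shares were called for the deletion of *Pcbp2*, which does not show that the others were unchanged. At 2.8 mM, 1 member was called, *Ints9*, and 0 were called higher (0.0315% of all pairs were called). Unadjusted p was under 0.05 for 278 of 4810 members, or 5.78%, and edgeR's diffSpliceDGE called 5. With the replicate block, 5 members were called, 2 higher and 3 lower. At 16.7 mM, 1 member was called higher and 1, *Uhrf2*, lower, against 0.0315% of all pairs (0.021% higher, 0.0105% lower), with 274 members (5.70%) under 0.05 unadjusted and 6 called by diffSpliceDGE. Groups did not overlap for 170 members (3.53%) at 2.8 mM and 113 (2.35%) at 16.7 mM, against 4.36% and 2.12% of all pairs. Both knockout comparisons were sensitive to single libraries, with 0 to 3 calls at 2.8 mM and 0 to 5 at 16.7 mM when each was left out in turn.

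*Ints9* is a subunit of the Integrator complex, which processes the 3′ ends of small nuclear RNAs. Its share was 19.9, 16.7 and 26.9% in control and 4.82, 7.88, 8.55, 4.45 and 6.96% in knockout cells at 2.8 mM, and 6.04, 6.98, 12.3 and 10.7% against 1.87, 5.79, 6.62, 3.71 and 3.70% at 16.7 mM. At 2.8 mM the groups lay far apart, whereas at 16.7 mM the lowest control sample, 6.04%, lay below the highest knockout sample, 6.62%. At 2.8 mM the log2 odds fell by 1.81 ± 0.31 (SE, adjusted p = 0.0352, limma), with the class level down by 1.75 (adjusted p = 0.0092, edgeR) and the other transcripts at 0.07. The call was lost with a pseudocount of 0.01 TPM, with shares of estimated counts, after rescaling, without the 3 high-glucose libraries, without the low-glucose replicates 3, and without any 1 of the control replicates or knockout replicates 1 or 4 at 2.8 mM. *Ints9* was not tested under a gene level of 5 TPM. Exons of *Gm52118* on the other strand cover 11.6% of Ints9-203.

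*Uhrf2* encodes a ubiquitin ligase that reads modified cytosines in DNA. Its share was 55.0, 68.6, 71.9 and 54.3% in control and 38.4, 31.9, 37.8, 34.6 and 26.6% in knockout cells at 16.7 mM, and 42.5, 39.6 and 56.4% against 27.8, 30.6, 25.5, 22.9 and 20.6% at 2.8 mM. The genotypes did not overlap at either concentration. The log2 odds fell by 1.69 ± 0.26 at 16.7 mM (adjusted p = 0.0149, limma), and the change at 2.8 mM was −1.32 (adjusted p = 0.107). The class level fell by 1.71 log2 units at 16.7 mM (adjusted p = 0.0036, edgeR) while the other transcripts were at −0.09. Its glucose change in control cells was called higher with the replicate block (adjusted p = 0.0202, limma, against 0.0687). The call at 16.7 mM was lost with shares of estimated counts, without the 3 libraries that stood apart, and without control replicate 2, control replicate 3 or knockout replicate 5. No other gene's exon overlaps Uhrf2-203, which holds 57.1% of the class.

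*Prpf31* had higher shares in knockout than in control cells without overlap at 2.8 mM (1.04 ± 0.29 log2 units, adjusted p = 0.315, limma) and with overlap at 16.7 mM (0.82 ± 0.27, adjusted p = 0.501), and neither was called. *Pcbp2* itself had retained-intron shares of 12.7, 8.43, 15.2 and 14.8% in control low, control high, knockout low and knockout high, not called in any comparison, while its other transcripts fell in the knockout by 1.87 log2 units at 2.8 mM and 2.43 at 16.7 mM (adjusted p = 7.7e-06 and 2.8e-07, edgeR). Member levels gave 3 higher and 14 lower calls at 2.8 mM and 4 and 10 at 16.7 mM, where 1.63% (0.176% higher, 1.45% lower) and 1.32% (0.217% higher, 1.1% lower) of all features were called.

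**Figure D4:**
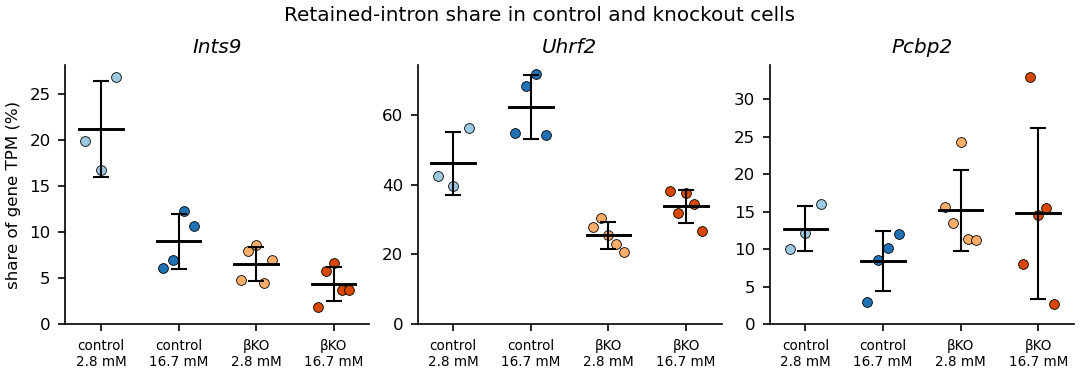
Retained-intron share (y axis, percent of the gene's TPM) of *Ints9* and *Uhrf2*, each called in a knockout comparison, and of *Pcbp2*, with 1 point per sample, colours for the 4 groups, lines at group means and error bars of 1 SD. *Uhrf2* sits at 20.6 to 38.4% in knockout against 39.6 to 71.9% in control samples.

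Whether the glucose response of a share differed between genotypes was tested as an interaction. limma called 0 members, the lowest adjusted p being 0.873, with 135 of 4810 (2.81%) under 0.05 unadjusted, and diffSpliceDGE called 1. For *Ints9* the glucose change was −1.24 in control cells (adjusted p = 0.0346) and −0.26 in knockout cells (adjusted p = 0.559), a difference that was not called.

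The called members also differed descriptively in their models. A whole coding intron was kept by the leading transcript of 51.8% of members higher at high glucose in control cells and 46.2% in knockout cells, against 33.4% of all tested members, and by 34.8% and 40.2% of those that were lower. Median lengths of the leading transcripts were 1776 and 1586 bases for the higher sets and 888 and 923 bases for the lower sets, against 1048 for all tested members. The median length of the kept introns was 410 and 394 bases in the higher and 237 and 269 bases in the lower sets, against 331 for all, and their median GC content was 49.1 to 55.5% in all of these sets. The higher sets also had lower mean shares, with medians of 4.21 and 3.56%. The lower sets had 9.27 and 14.5%, and all tested members 7.64%. No test was made of these features. Membership of the higher sets depended on the pseudocount. In knockout cells, higher calls went from 232 with 0.01 TPM to 1806 with 1 TPM, and lower calls from 166 to 160. In control cells, higher calls went from 51 to 1431 and lower calls from 32 to 80. Whether the differences in share, length and kept introns follow from the pseudocount was not tested.

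**Figure D5:**
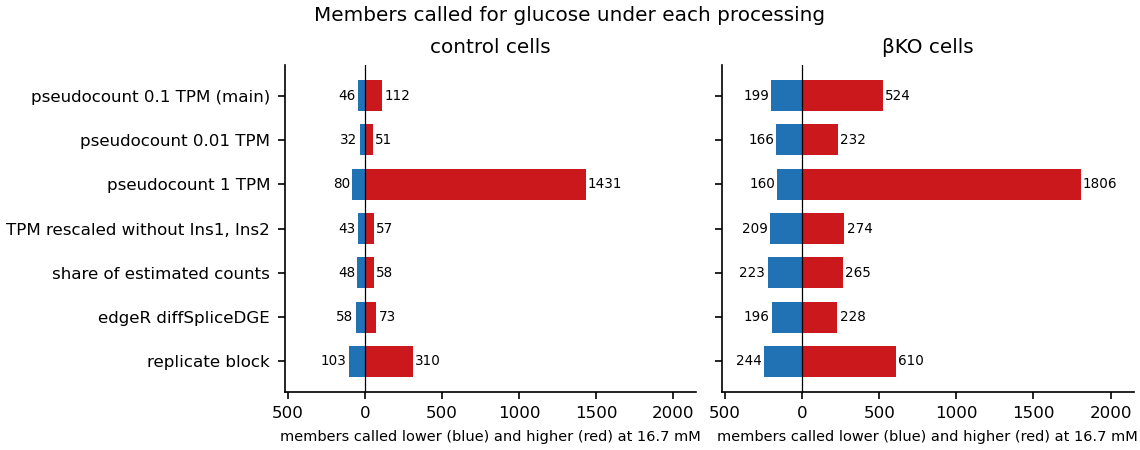
Number of members called higher and lower at high glucose (x axis, count) under 7 processing settings (y axis), for control and knockout cells. In control cells the calls run from 83 with a pseudocount of 0.01 TPM to 1511 with a pseudocount of 1 TPM, and the rescaled TPM, the shares of estimated counts and diffSpliceDGE give closer numbers in both directions.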

How the data were processed

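For each sample, the authors deposited the estimated counts and the TPM of 142376 transcripts of 55357 genes, with gene and biotype in the transcript names. Per the paper's methods and the submitters' processing notes, Kallisto aligned the reads to the GRCm39 (mm39) transcriptome and edgeR tested genes. The Kallisto version, and the levels of the batch factor in that test, were not given in the sources used here, and batch was therefore not a term of the fits. The authors' TPM deposited per transcript are abundances per effective length that sum to 1 fixed total in each library, whereas the estimated counts were not normalized between samples. Assignment of reads among overlapping transcripts is an estimate, and the counting was not stated to use strand.

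The members, gene lists, named genes and tests were chosen with earlier results of these data known. Shares were fitted with limma 3.58.1 (trended variance) on log2 odds with a pseudocount of 0.1 TPM, over 9514 of 12405 gene-class pairs with an average of at least 10 estimated counts in the class and in the rest of the gene, in 1 fit of the 4 group means. Levels were fitted with edgeR 4.0.16 (TMM, filterByExpr, quasi-likelihood test) on rounded estimated counts. p values were adjusted by the Benjamini-Hochberg method across every pair or feature fitted. Calls needed an adjusted p under 0.05 and a change over 1.5-fold. Alternatives used other pseudocounts (0.01 and 1 TPM), filters, denominators and tools (DESeq2 1.42.0, edgeR's diffSpliceDGE), left-out libraries and a replicate block. Rescaling of TPM outside *Ins1* and *Ins2*, and leaving out the low-glucose replicates 3 of both genotypes, were added after seeing the data. The scripts were tested on simulated data. R 4.3.3 and Python 3.11.15 were used.

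Named genes were, per comparison and direction, the 4 called members with the largest difference in share among those with a gene mean of at least 5 TPM and no overlap of groups, the 3 members of each list with the highest retained-intron TPM, *Pcbp2*, the 5 highest members overall and the 3 on either side of the gene level limit. Some genes that the rule selects are not reported here. Other genes were named after their values were seen. Transcripts were placed by identifier on the GENCODE vM39 annotation of GRCm39. Of 77 members examined, 26 had an exon of another gene in the leading transcript. Besides those given above, such exons cover 75.4% of it in *Eif5*, 32.3% in *Rbm39*, 21.9% in *Pcbp2*, 21.6% in *Thoc1* and 12.9% in *Mlxipl*, among others. These shares are uncertain to that extent.

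The replicate numbers of the labels were checked for pairing by correlating deviations from group means of log2 CPM. Same-numbered samples correlated at 0.476, 0.244 and 0.453 between control cells at both concentrations and at 0.165 to 0.470 between genotypes at 2.8 mM. Between knockout cells at both concentrations the values were 0.136 to 0.259. All of these were over 0.1, the limit set for pairing. At 16.7 mM the genotypes gave 0.070 to 0.636, which did not meet it. The main fits nevertheless held no term for the numbers, so their comparisons were unpaired. The replicate block, an alternative, held 1 factor for them over all 17 samples, so it also paired the genotypes at 16.7 mM. On share log odds, the scale of the share tests, the median was 0.0425 for 22 same-numbered and −0.017 for 85 other pairs. There, no pair of groups met the limit, with 0.045 to 0.2 between control cells and 0.034 to 0.24 between knockout cells at both concentrations.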

Additional observations from a re-analysis of the deposited data

Results flagged for a closer look

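Among 77 members, the summed share and the median share, 24 of 237 groups of 4 or 5 samples held 1 sample far from the rest by Dixon's criterion (10.1%, where chance gives about 5%). In control cells at 16.7 mM, replicate 4 stood out for *Flcn* (23.6% against 8.17 to 10.3%), *Ndufa3* (4.18% against 1.47 to 1.68%) and *Slc25a39* (1.07% against 1.79 to 1.89%). There, replicate 1 stood out for *Hnrnpu* (4.85% against 8.38 to 8.92%), *Eif5* (16.5% against 1.63 to 2.55%) and *Rpl30* (1.07% against 1.48 to 1.5%), and replicate 2 for *Exosc10* (25.3% against 19.9 to 20.8%).

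In knockout cells at 2.8 mM, replicate 5 stood out for *Gigyf2* (73.2% against 84.4 to 88.6%), *Thoc1* (76.4% against 83.3 to 85.6%), *Hspa5* (1.47% against 0.516 to 0.751%), *Rsrp1* (46.6% against 65.4 to 69.7%) and *Rpl3* (1.39% against 0.705 to 0.898%). Replicate 3 stood out for *Pwwp3a* (20.1% against 14.6 to 15.5%), *Exosc10* (24.6% against 17.3 to 18.7%) and the median share over all members (7.17% against 5.17 to 5.63%), and replicate 1 for *Mfn1* (21.0% against 32.5 to 36.6%).

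In knockout cells at 16.7 mM, replicate 4 stood out for *Prpf31* (56.6% against 69.2 to 72.3%) and *Flcn* (23.0% against 7.63 to 8.77%). Replicate 5 stood out for *Luc7l* (33.9% against 48.9 to 52.0%), *Rsrp1* (48.0% against 61.4 to 66.6%), *Glt8d1* (9.88% against 4.77 to 5.95%), *Ccar1* (10.1% against 8.11 to 8.49%) and *Fastk* (32.1% against 34.8 to 35.9%), and replicate 2 for *Ogfod2* (18.2% against 11.5 to 13.0%).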

How the results depend on the processing

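Counts of called shares are given for glucose in control cells (158), glucose in knockout cells (723), the knockout at 2.8 mM (1) and the knockout at 16.7 mM (2). A pseudocount of 0.01 TPM gave 83, 398, 0 and 2 and a pseudocount of 1 TPM gave 1511 (1431 higher), 1966 (1806 higher), 16 and 10. Dropping the count filter gave 273 in control cells, sample weights gave 333 there and 2 for the knockout at 2.8 mM, and diffSpliceDGE gave 424 in knockout cells, 5 and 6 for the knockout comparisons and 1 for the interaction, which had 0 calls in every other setting. For the knockout comparisons, shares of estimated counts gave 2 and 1, the protein-coding denominator 2 at 2.8 mM, and a gene level of 5 TPM 0 at 2.8 mM. Without the 3 high-glucose libraries that stood apart, the 4 counts were 273, 603, 2 and 0. Rescaled outside the insulin genes they were 100, 483, 0 and 2, and without both low-glucose replicates 3 they were 216, 700, 0 and 2. Leaving out single libraries gave 19 to 302, 489 to 706, 0 to 3 and 0 to 5. In control cells, counts were 47 and 19 without replicates 1 and 2 at 2.8 mM, and 88, 58, 78 and 302 without replicates 1 to 4 at 16.7 mM. With the replicate block, the pairing of numbers gave 413, 854, 5 and 7 called shares, and 695, 1048, 20 and 27 called levels against 398, 903, 17 and 14. Among the named members, the block changed the call for *Mtf1*, *Timm44*, *Uhrf2*, *Srsf7*, *Hnrnpa2b1*, *Rbm39*, *Thoc1*, *Exosc10*, *Mlxipl* and *Eif4a2* (newly called in control cells) and *Rpl13a* (in knockout cells). For levels, DESeq2 gave 602 for glucose in control cells, and 54 and 58 for the knockout at low and high glucose, leaving out the 3 libraries gave 619 for glucose in control cells and 22 at high glucose between genotypes, and leaving out the low-glucose replicates 3 gave 6 at low glucose between genotypes. Single left-out libraries gave 116 to 580, 738 to 919, 7 to 14 and 7 to 34. The summed shares were 4.51, 4.54, 4.75 and 4.69% in estimated counts, and 6.71 and 6.84% in control and knockout cells at 16.7 mM without the 10 highest genes. Of the 107 results on named genes, 33 were called in the main fit. Their 2282 alternative values, those of the results not called included, gave 2107 that stayed on their side of the threshold. Of these, 92 (from 27 results not called) had a changed sign. A call was lost in 114, all of them from the 33 called results, and gained in 60. The share of *Pcbp2* for glucose in knockout cells turned from −0.11 to a called 0.62 log2 units with a pseudocount of 1 TPM. Where no cause is named above, it was not tested.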
